A study of Drosophila melanogaster with 2 samples.

Results

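The 8 Hox genes of Drosophila melanogaster and exd, which encodes their DNA-binding partner, were followed through a map of where the protein encoded by aop is found on chromatin. The genes were chosen by name: lab, pb, Dfd, Scr, Antp, Ubx, abd-A, Abd-B and exd, which are 9 of 13968 protein-coding genes on the chromosome arms. A binding region was taken as theirs when its summit lay inside the annotated gene or when its nearest protein-coding transcription start site (TSS) was that of the gene. This gave 1 of the 1725 peaks that passed the threshold and 533 of the 147076 ranked candidates.
The data are chromatin immunoprecipitation followed by sequencing (ChIP-seq) of 1 group with 2 biological replicates. Chromatin came from whole embryos aged 0 to 24 h of a fly strain with an insertion that fuses aop to enhanced green fluorescent protein (aop-eGFP), and an antibody against GFP was used for the precipitation. Whole embryos of all stages were pooled, so binding in few cells and weak binding in many cells cannot be told apart. The labels do not say whether untagged aop protein was also present, and control libraries were not analysed here.

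Hox genes encode homeodomain transcription factors that give each segment along the head-to-tail axis its identity. In the fly they lie in a pair of clusters on chromosome arm 3R. The Antennapedia complex holds lab, pb, Dfd, Scr and Antp, which act in the head and thorax. The bithorax complex holds Ubx, abd-A and Abd-B, which act in the posterior thorax and the abdomen. The exd gene, on the X chromosome, encodes a TALE-class homeodomain protein that binds DNA together with Hox proteins, and Polycomb and trithorax group proteins keep Hox genes off or on through development. The aop protein, also called Yan, is an ETS-domain repressor that is removed from its targets when receptor tyrosine kinase signalling activates MAPK.

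A single one of the 9 genes, Antp, had a peak in the thresholded set, where 10.3% of all protein-coding genes had one, and the strongest region of each other Hox gene stayed below that threshold. Sequences at 4 regions are shown first, because they carry the results that follow: the Antp peak, the strongest candidates of pb and abd-A, and the candidate with the strongest ETS match near the abd-A microRNAs. Each holds the summit and 100 bases on either side, on the plus strand of the dm6 assembly, read from the RefSeq Release 6 sequence. Capitals mark matches, on either strand, to the ETS site (CGGAA preceded by A or C and followed by A or G and then C or T), to TGACAG, the site type of the cofactor Hth, and to GAGAG, the site of the GAGA factor Trl.
Antp, chr3R:6912318-6912518: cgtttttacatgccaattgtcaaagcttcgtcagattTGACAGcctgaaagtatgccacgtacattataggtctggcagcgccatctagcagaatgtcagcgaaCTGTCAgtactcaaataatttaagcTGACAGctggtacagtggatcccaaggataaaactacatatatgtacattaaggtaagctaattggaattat
pb, chr3R:6709008-6709208: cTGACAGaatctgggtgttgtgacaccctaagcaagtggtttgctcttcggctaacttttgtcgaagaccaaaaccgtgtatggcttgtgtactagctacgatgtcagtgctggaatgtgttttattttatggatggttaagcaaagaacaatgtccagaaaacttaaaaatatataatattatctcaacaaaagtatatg
abd-A, chr3R:16847338-16847538: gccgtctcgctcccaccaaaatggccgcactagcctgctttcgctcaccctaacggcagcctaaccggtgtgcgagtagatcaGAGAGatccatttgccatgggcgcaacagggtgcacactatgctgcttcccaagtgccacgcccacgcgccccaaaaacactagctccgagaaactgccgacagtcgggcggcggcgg
abd-A beside mir-iab-4, chr3R:16855947-16856147: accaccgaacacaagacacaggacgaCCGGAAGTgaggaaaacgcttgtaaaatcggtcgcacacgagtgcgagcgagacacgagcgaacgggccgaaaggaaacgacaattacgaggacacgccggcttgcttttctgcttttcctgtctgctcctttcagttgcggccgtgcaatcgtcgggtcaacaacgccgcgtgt

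The Antp peak lay in an intron. Antp (FBgn0260642) is the homeotic gene of the thorax, whose misexpression turns antennae into legs. The gene spans chr3R:6896253-6999228 on the minus strand, and its peak at chr3R:6912290-6912545 had its summit at 6912418, 20.4 kb from the nearest Antp TSS and inside the body of CG46458 as well, which starts within Antp and shares this end of the gene. The signal value, the authors' own enrichment measure with an unstated scale, was 78.0 in the set from both replicates. That value ranked 579 of 1725 thresholded peaks, whose median was 64.8 with an interquartile range of 53.6 to 90.4. Its global irreproducible discovery rate (IDR), the expected share of irreproducible calls at that rank, was 0.000728, and the peak also stood in the authors' conservative set. In the replicates' own ranked lists the same place had a signal of 29.4 in replicate 1, rank 859 of 93043, and of 45.1 in replicate 2, rank 741 of 113872. It passed the threshold in replicate 2 alone, with an IDR of 0.00466 there and of 0.0226 in replicate 1, so it is in the own thresholded list of 1 replicate (1142 peaks) and not in that of the other (628 peaks).

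With 1 of 9 genes holding a peak (11.1%), the Hox genes and exd stood near the background of all protein-coding genes, of which 1432 of 13968 had one under the same assignment. The exd gene counts here as lacking a peak, but it has no candidate in any list and could not be assessed. Hox genes are long, and a long gene collects more summits. All 8 Hox genes have a body of at least 10 kb, and 1 of the 8 had a peak, where 548 of 1985 genes of that length had one (27.6%). Counted over regions, 1 of the 533 candidates of Hox genes was in the thresholded set (0.188%), where 1692 of 145057 candidates on the arms were (1.17%). With so few members these shares are descriptions, and no test over samples is possible with 1 group.

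**Figure D1:**
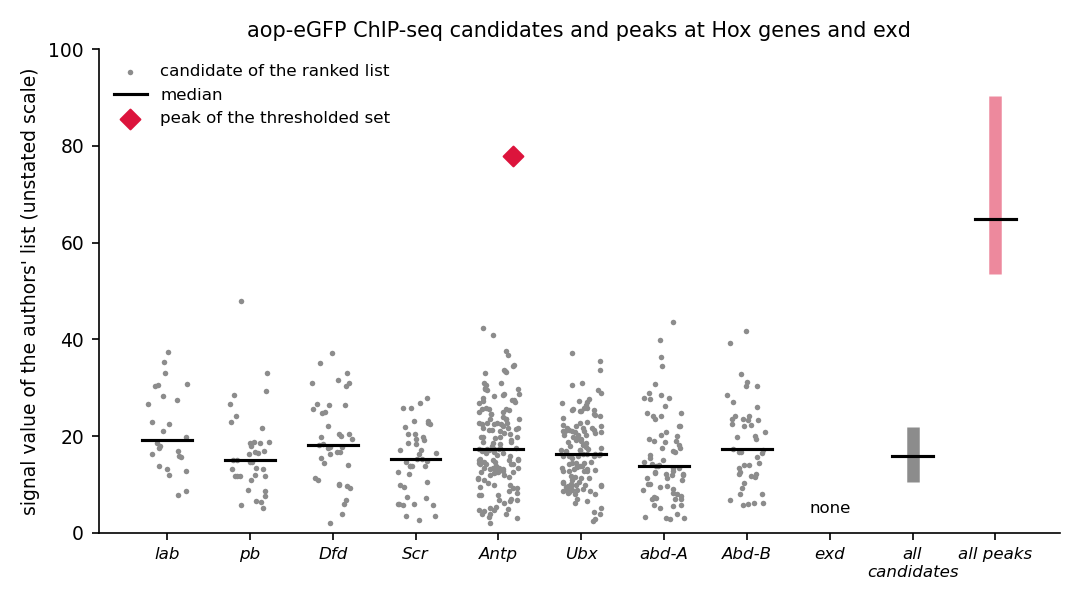
Signal value (unstated scale) of each ranked candidate at the 8 Hox genes and exd, with the candidate medians as lines and the thresholded peak as a diamond; bars at the right give the interquartile range of all candidates and of all thresholded peaks on the arms. The Antp peak at 78.0 stands above the median of all thresholded peaks, each other Hox candidate is at or below 47.8, and exd has no candidate.

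Below the threshold, the strongest candidates of the 8 Hox genes had signals of 27.9 to 47.8, once the Antp peak is set aside. The next region after the Antp peak by signal was at pb (proboscipedia, FBgn0051481), which specifies the adult mouthparts. It lay at chr3R:6708980-6709235 in a pb intron, 33.0 kb from the pb TSS and 5.02 kb from that of Ccp84Aa, a cuticle protein gene next to pb. Its combined signal was 47.8 with a global IDR of 0.0358, and its signal was 12.4 in replicate 1 (rank 23442) and 31.4 in replicate 2 (rank 1859). The replicates were thus far apart at this place. Signal alone does not set the threshold, since 165 of the thresholded peaks (9.75%) had a signal below 47.8 and 384 candidates stronger than that were left out.

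The other Hox genes of the Antennapedia complex had no region close to the threshold. At lab (labial, FBgn0002522, chr3R:6661427-6678590), the most anterior of the Hox genes in its expression, the strongest candidate lay in a coding exon at chr3R:6662020-6662275 with a signal of 37.4 and a global IDR of 0.0714. Its own signals were 13.2 in replicate 1 and 22.9 in replicate 2. At Dfd (Deformed, FBgn0000439, chr3R:6791836-6802428), which patterns the mandibular and maxillary segments, it was intergenic, 6.54 kb upstream of the TSS, at chr3R:6785165-6785420. That candidate had a signal of 37.1, a global IDR of 0.113, and signals of 15.9 in replicate 1 and 22.0 in replicate 2. Scr (Sex combs reduced, FBgn0003339, chr3R:6823120-6849981), which acts in the labial and first thoracic segments and directs salivary gland formation, had the weakest best region of the 8. Its strongest candidate, chr3R:6845476-6845731, had a signal of 27.9 and a global IDR of 0.519, and 88.3% of genes of at least 10 kb had a stronger best candidate than Scr. Antp itself had further intronic candidates at chr3R:6976460-6976715 with a signal of 42.3 and at chr3R:6920051-6920306 with a signal of 40.9. Both were about as strong as the best candidates assigned to abd-A and Abd-B. Another, at chr3R:6965038-6965293, had a lower signal of 33.1 but a global IDR of 0.0189, with a signal of 23.1 in replicate 2 and no candidate in replicate 1.

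In the bithorax complex the strongest candidates of abd-A and Abd-B had higher signals than that of Ubx. For abd-A (abdominal A, FBgn0000014, chr3R:16807214-16830049), which patterns the abdominal segments, the strongest candidate was chr3R:16847310-16847565, 17.4 kb upstream of its TSS, in intronic sequence inside the MSAmiP gene. Its combined signal was 43.5 with a global IDR of 0.0234, and its signals were 15.4 in replicate 1 and 29.2 in replicate 2. A second one in an abd-A coding exon, chr3R:16826000-16826255, had a combined signal of 40.0 and a global IDR of 0.0258, with signals of 15.7 in replicate 1 and 28.2 in replicate 2. Abd-B (Abdominal B, FBgn0000015, chr3R:16927212-16972236), the most posterior of the Hox genes, had its strongest candidate in an intron as well. That one, at chr3R:16958377-16958632, had a signal of 41.7 and a global IDR of 0.0293, with signals of 16.0 in replicate 1 and 21.1 in replicate 2. In each of these 3 candidates replicate 2 had the higher value, and its list also has the higher median over all candidates (11.0, with 9.37 in replicate 1). The scale of each list is unstated, so the higher value need not mean more binding. Ubx (Ultrabithorax, FBgn0003944, chr3R:16656623-16734426), which sets the haltere apart from the wing, had its strongest candidate at chr3R:16682591-16682846, 51.7 kb downstream of the TSS in an intron. That candidate had a combined signal of 37.3, a global IDR of 0.0686, and signals of 21.6 in replicate 1 and 17.8 in replicate 2, so replicate 1 was the higher one there. The Ubx candidate with the lowest IDR was a weaker one, chr3R:16694592-16694847, with a signal of 30.6 and a global IDR of 0.0483.

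At a looser limit chosen after the values were seen, a global IDR of at most 0.05, 8 Hox candidates at 5 genes (Antp, pb, Ubx, abd-A and Abd-B) came in. These were 1.5% of the 533 Hox candidates, where 2.35% of all candidates on the arms met that limit. As genes, 5 of 9 met it, where 18.5% of all protein-coding genes did. Without exd, which is short, it was 5 of 8, where 46.0% of genes with a body of at least 10 kb met it. These counts rest on 8 regions. Of the 8 regions, 3 had a GC content of at least 60% within 100 bp of the summit, among them the upstream abd-A candidate at 61.7% and the abd-A coding exon at 65.7%. Among all candidates at that limit 101 of 3413 were as GC-rich (2.96%). Base composition can affect sequencing coverage, and its part in these values was not tested.

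**Figure D2:**
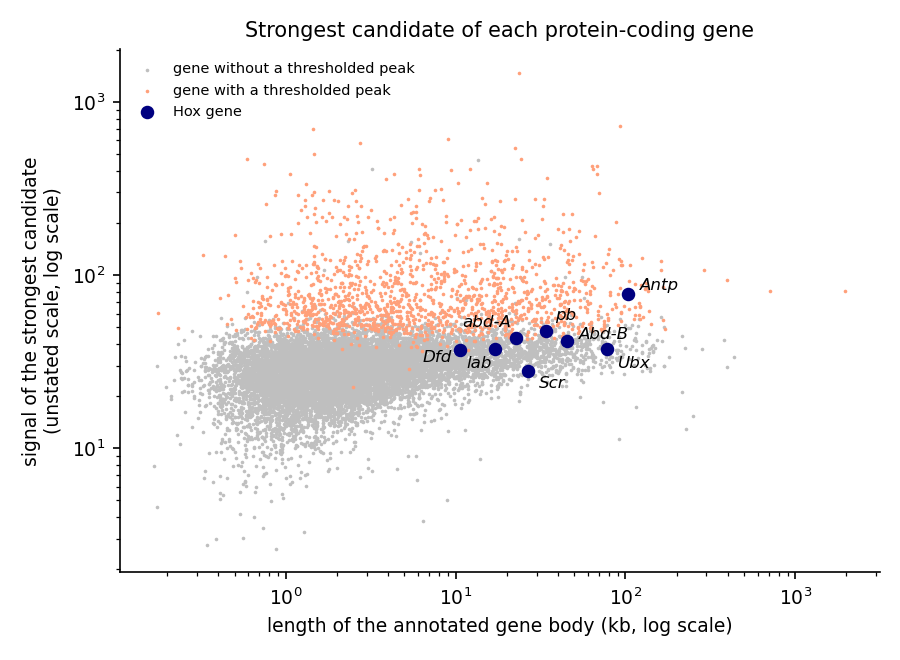
Strongest candidate signal (log scale, unstated units) of each protein-coding gene against the length of its annotated body (kb, log scale), with the 8 Hox genes as large dots and genes with a thresholded peak in orange. Antp at 103.0 kb and 78.0 lies among genes with a peak, the other 7 Hox genes lie among genes without one, and exd is not drawn because it has no candidate.

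The next candidates were weaker. After the strongest one, the following 2 had signals of 35.2 and 33.1 at lab, 33.1 and 29.4 at pb, 35.2 and 33.1 at Dfd, 26.9 and 25.9 at Scr, and 35.5 and 33.6 at Ubx, and a further one at Abd-B had 32.8.

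Set against genes of at least 10 kb, the best regions of most Hox genes lay in the usual range. The long genes were not matched further in length. Their median body was 20.6 kb, while Antp spans 103.0 kb and Ubx 77.8 kb. The median signal of the strongest candidate per gene was 39.5 for the 8 Hox genes, and 39.2 for the 1927 genes of at least 10 kb with a candidate (interquartile range 32.5 to 53.7). A stronger best candidate than that of Antp was found in 11.7% of the long genes. The same share was 30.6% for pb, 36.3% for abd-A, 41.3% for Abd-B, 54.5% for lab, 54.9% for Ubx and 55.4% for Dfd, and 88.3% for Scr as given above. In order of strength Antp was thus alone at the top and Scr alone at the bottom. The 6 genes between them spanned 37.1 to 47.8, and their order is not firm, since the replicates' strongest places in these genes differed.

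Candidates were about as dense over most Hox genes as over 3R as a whole. They numbered 147 at Antp, 121 at Ubx, 73 at abd-A, 46 at Abd-B, 43 at Scr, 40 at Dfd, 37 at pb and 26 at lab. Inside gene bodies this came to 0.85 per kb at Dfd, the lowest, and 1.41 per kb at Ubx, the highest, with 1.15 per kb over the whole of 3R. Of the 533, 415 had their summit in the gene body and 118 were assigned by the nearest TSS alone. Their median signal was 16.7 (interquartile range 11.6 to 22.8), and that of all candidates was 15.8 (10.6 to 21.9). The ranked list holds many weak regions and covers 26.6% of the arms, so a candidate by itself is not a binding call. Per gene, the median ran from 13.7 at abd-A to 19.1 at lab.

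Hox promoters held candidates of ordinary strength and no peak. Of the 19 annotated TSSs of the 8 Hox genes, 17 had a candidate within 500 bp, and the 2 without one belonged to Abd-B. Counted as genes, all 8 had such a candidate, where 87.5% of genes of at least 10 kb and 82.3% of all genes did. The strongest such candidate had a signal of 30.9 at lab, 30.3 at Dfd, 29.0 at abd-A, 26.9 at Scr, 26.7 at pb, 25.6 at Antp, 24.1 at Abd-B and 15.5 at Ubx. Their median was 26.8, and that of all genes of at least 10 kb with such a candidate was 28.3. TSS-proximal summits, counted near a TSS of any gene, made up 8.26% of Hox candidates and 15.2% of all candidates on the arms. Introns held 68.1% of Hox candidates and 37.6% of all. Most Hox candidates were taken because they lay in the body of a long gene, and these shares were not set against candidates of other long genes. Among the thresholded peaks of the whole set 52.2% were TSS-proximal and 31.1% intronic, so the Antp peak belongs to the smaller of those classes. Of the 24 regions formed by the 3 strongest candidates of each Hox gene, 19 were intronic and 2 were TSS-proximal. Of these 2, the Scr region lay 0.441 kb from the Scr TSS. The other, beside mir-iab-4, lay 26.0 kb from the abd-A TSS.

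The replicates picked the same strongest place at Antp and at no other Hox gene. At Antp the strongest candidates of replicate 1 and replicate 2 started 2 bp apart. At the other 7 genes they lay between 2526 bp apart, at lab, and 36417 bp apart, at Ubx. In replicate 1 the strongest candidate reached 29.4 at Antp, and between 14.7 (Scr) and 21.6 (Ubx) at the other genes. In replicate 2 it reached 45.1 at Antp, and between 18.7 (Scr) and 31.4 (pb) at the others. Antp was therefore the highest and Scr the lowest Hox gene in both. A shared strongest place was found for 1 of 8 Hox genes (12.5%). It was found for 25.1% of genes of at least 10 kb, for 9.39% of such genes without a thresholded peak and for 64.7% of those with one. The thresholded set was made from both replicates, so this measure is not independent of it. Over all Hox candidates, 210 of 533 (39.4%) overlapped a candidate of each replicate, and the share was the same for all candidates on the arms (39.4%).

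**Figure D3:**
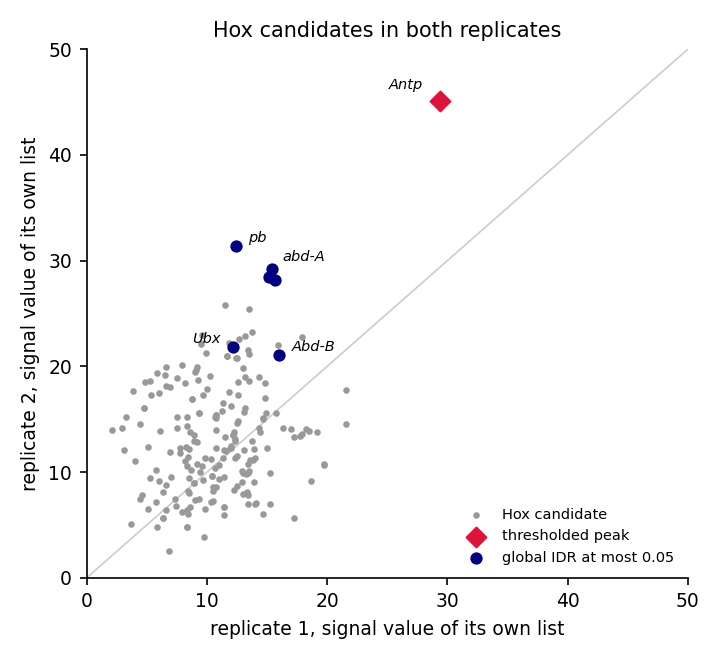
Signal value in replicate 2 against that in replicate 1, each from its own ranked list with an unstated scale, for the 210 Hox candidates found in both; the line marks equal values, and names stand at the strongest marked region of each gene. The Antp peak (29.4 in replicate 1 and 45.1 in replicate 2) stands apart, and 6 further Hox candidates with a global IDR of at most 0.05 lie above the line.

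No ETS site lay within 100 bp of the Antp summit, and none lay there in the other 7 Hox regions with a global IDR of at most 0.05. An ETS site, in the form given with the sequences above, was found under 19 of the 533 Hox candidates (3.56%). It was found under 4.93% of all candidates on the arms, under 7.39% of thresholded peaks and in 3.58% of 1676 windows of the same length laid end to end over the Hox gene bodies. The 19 candidates held 21 sites. Hox candidates with a site had a median signal of 13.9, and those without one 16.8. Over all candidates on the arms the order was the other way, with 16.5 and 15.8. The strongest Hox candidate with a site is the last of the sequences above, assigned to abd-A by the nearest protein-coding TSS, 26.0 kb away. It lies 228 bp upstream of mir-iab-4, whose microRNA represses Ubx, and 295 bp past the start of mir-iab-8, encoded on the opposite strand. Its site at chr3R:16855973-16855980 is the single one under a Hox candidate that also matches the longer form ACCGGAAGT, which was found under 0.188% of all candidates. That candidate had a combined signal of 36.4 and a global IDR of 0.144, with a signal of 14.7 in replicate 2 and no candidate in replicate 1, so it did not recur between the replicates.

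The sequence of the Antp peak instead held 3 copies of TGACAG. Hth, like Exd a TALE-class partner of Hox proteins, binds this sequence. The copies lay at chr3R:6912355-6912360 and chr3R:6912447-6912452 on the plus strand and at chr3R:6912422-6912427 on the minus strand. At least 3 copies were found in 1 of 533 Hox candidates (0.188%), in 38 of 145057 candidates on the arms (0.0262%) and in 1 of 1692 thresholded peaks (0.0591%), which is the Antp peak. At least 1 copy was in 10.1% of Hox candidates, 8.34% of all candidates and 6.56% of thresholded peaks. The count of copies was looked at after the sequence had been seen, and it is a match of letters, not evidence of Hth binding.

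Among sites of the Hox system and its maintenance factors, some were about as frequent under Hox candidates as in the surrounding Hox sequence and others were not. The composite Exd-Hox site TGATNNAT was under 14.4% of Hox candidates and in 14.0% of the windows over Hox gene bodies, with 10.8% of all candidates. The Antp peak had none, while the weak Scr candidate at chr3R:6845476-6845731 had 2. The homeodomain site TAATTA was under 9.01% of Hox candidates and in 14.1% of Hox body windows, with 9.33% of all candidates. The Abd-B type site TTTATGG was under 10.9% of Hox candidates and in 9.37% of Hox body windows, with 5.14% of all candidates. GCCAT, the core letters of the site of the Polycomb group protein Pho, was under 49.7% of Hox candidates and in 38.8% of Hox body windows, with 40.9% of all candidates. For the Hox genes of the bithorax complex it was under 57.1% of candidates and in 42.8% of body windows. For those of the Antennapedia complex it was under 43.7% and in 35.8%. GAGAG was under 30.6% of Hox candidates and in 26.0% of Hox body windows, with 23.9% of all candidates. Some matches may overlap each other. The median GC content was 46.8% for Hox candidates and for all candidates, and 42.8% for the Hox body windows. Its part in these shares was not tested. Of the 533 Hox candidates, 118 had their summit outside the Hox gene bodies.

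Both complexes held fewer thresholded peaks for their length than 3R as a whole. By the assignment rule, 2 of their 3 peaks were counted for genes other than the Hox genes. The Antennapedia complex, chr3R:6661427-6999228, had 2 peaks in 338 kb (5.92 per Mb), and the bithorax complex, chr3R:16656623-16972236, had 1 in 316 kb (3.17 per Mb). The whole of 3R had 11.8 peaks per Mb. With 2 and 1 peaks these rates are coarse, and they hold for the thresholded set alone. At a global IDR of at most 0.05, counted for any gene, 5 of 381 candidates of the Antennapedia complex passed. In the bithorax complex 8 of 371 did, and over the whole of 3R 787 of 36890 did (2.13%). Candidates were as dense as elsewhere, at 1.13 per kb in the Antennapedia complex and 1.18 per kb in the bithorax complex. The second peak of the Antennapedia complex was at bcd, the maternal gene of anterior patterning, 153 bp upstream of its TSS at chr3R:6759491-6759746. It had a combined signal of 55.4 and a global IDR of 0.00857, with signals of 21.1 in replicate 1 and 32.7 in replicate 2, and it stood in neither replicate's own thresholded list. The peak of the bithorax complex lay between genes at chr3R:16798743-16798998, 8.34 kb from the end of the abd-A body and 10.6 kb from the TSS of Glut3, a glucose transporter family gene. Since Glut3 has the nearest TSS, the peak was not counted for abd-A. It was the strongest in either complex, with a combined signal of 83.8 and a global IDR of 0.000566, and with signals of 25.5 in replicate 1, below that list's threshold, and 60.2 in replicate 2, above it.

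**Figure D4:**
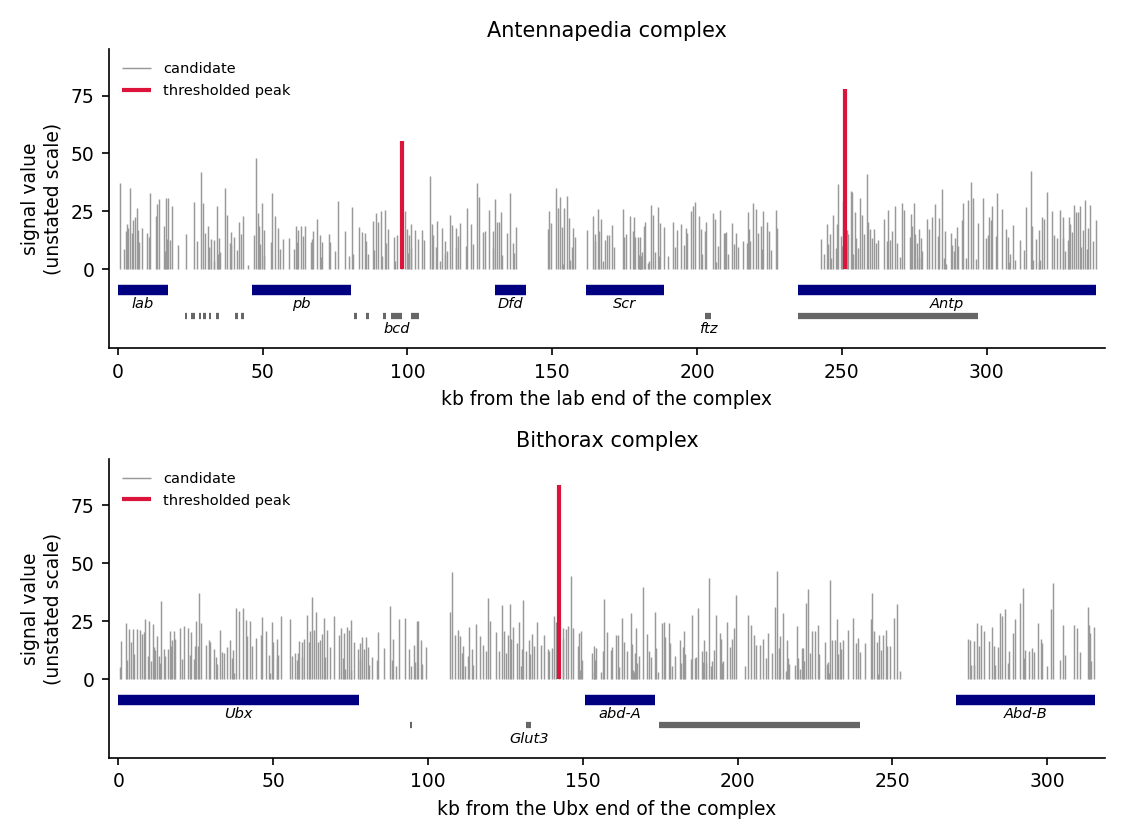
Signal value (unstated scale) of the ranked candidates, in grey, and of the thresholded peaks, in red, along the Antennapedia complex and the bithorax complex, with position in kb from the lab end or the Ubx end; blue bars are Hox genes and grey bars other protein-coding genes. The 3 peaks are those at bcd, in an Antp intron and between Glut3 and abd-A, with signals of 55.4, 78.0 and 83.8.

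The other protein-coding genes within the complexes held peaks about as often as the 10.3% of all protein-coding genes, as far as such small numbers show. Of the 15 further protein-coding genes of the Antennapedia complex, 2 had a peak: bcd, and CG46458 through the peak it shares with Antp. Of the 3 in the bithorax complex, Glut3 alone had one, and CG31275 and MSAmiP had none. The homeobox genes ftz, zen and zen2 and the cuticle protein genes between lab and pb had none either. The noncoding genes had no peak, neither the microRNA genes mir-993 and mir-10 nor lncRNA:bxd, lncRNA:iab4, lncRNA:iab8, mir-iab-4 and mir-iab-8. The candidate nearest the start of mir-993 had a signal of 23.3, that of mir-10 17.6, that of lncRNA:bxd 18.7 and that of lncRNA:iab4 27.9, all below the 36.4 beside mir-iab-4. Away from the starts there were stronger ones, with a best signal of 46.3 within lncRNA:bxd and 46.5 within lncRNA:iab8.

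For exd the lists hold no value. The gene (FBgn0000611) spans chrX:15992468-15996509 on the plus strand, and no line of any list overlapped it or had its TSS as the nearest. The nearest candidates of the ranked list ended at 15985636 and began at 16024424, a gap of 38.8 kb that holds 6 protein-coding genes in full. The gap was as wide in replicate 1 (38.8 kb) and wider in replicate 2 (48.1 kb). Of 25086 gaps between candidates on X, 8 were at least as long as that of the ranked list, and 114 of 2196 protein-coding genes on X had no candidate. Binding at exd therefore could not be assessed with these lists.

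Genes that work with the Hox genes carried peaks in different proportions. The lists were chosen with earlier results of these data known, so their shares are descriptions and were not tested. They are read against the 10.3% of all protein-coding genes and the 27.6% of those of at least 10 kb with a peak. Of 7 genes for cofactors and collaborators, 2 had a peak: hth, with 3 peaks of which the strongest had a signal of 83.9 in an intron, and disco, a zinc finger gene, with 45.1. The disco peak lay between genes, 19910 bp from the disco TSS. The 18 genes reported to be regulated by Hox proteins in the embryo held the most, with 12 (66.7%) having a peak. Of these 18 genes 9 have a body of at least 10 kb, and 5 of those 9 had a peak. Some of the 12 were counted through an intergenic peak with theirs as the nearest TSS. The strongest were at dpp, a BMP ligand gene that Ubx activates in the visceral mesoderm, with 85.4, at hth, at grh, a gene for an epidermal and neural transcription factor, with 80.9, at salm, a zinc finger gene, with 68.8, and at ct, a homeobox gene, with 66.3. Of 11 early regulators of Hox expression, cad, the posterior homeobox gene, had a peak of 72.9 and bcd that of 55.4. The 26 matched Polycomb, trithorax and insulator genes had 7 with a peak (26.9%). The signals were 410.1 for ph-p and 188.3 for Psc, which encode Polycomb repressive complex subunits, 206.1 for Trl, and 205.2 for brm and 169.6 for osa, which encode subunits of the Brahma remodelling complex. Those 5 were far above the Antp peak at 78.0, while kis with 87.5 and ph-d with 82.8 were close to it. Of the 26 matched genes 9 have a body of at least 10 kb, and 6 of those 9 had a peak. Of 30 other homeobox genes 6 had a peak (20.0%), at tin with 76.0, cad with 72.9, ct with 66.3, C15 with 58.5 and inv with 53.7 among them. The Antp peak, at 78.0, was thus of the same order as the peaks of the other homeobox genes. Of those 30 homeobox genes 10 have a body of at least 10 kb, and 4 of the 10 had a peak, where 1 of the 8 Hox genes did. The lists share genes (among them hth, bcd, cad and ct).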

How the data were processed

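ChIP-seq peak lists of 2 replicates of 1 group were used, on the dm6 assembly, per the labels. The authors' deposited lists hold an IDR score of each peak (whole numbers limited to 1000, at least 830 in the thresholded lists), a signal value with an unstated scale, a summit offset and, in the ranked lists, the −log10 global IDR. The aligner was not given in the sources used here, nor was the peak caller, and read depth is unknown, since the lists hold no counts. It follows that no interval for counting error can be given.

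From these lists, summits were assigned to gene models of Ensembl 115, sequence was read from Release 6, and 8 motifs were looked for on either strand up to 100 bp from each summit. Analyses of genes used the 7 chromosome arms (1692 of 1725 peaks and 145057 of 147076 candidates). A summit was TSS-proximal within 500 bp of a TSS of any gene, transposons aside. Replicates were matched by an overlap of at least 1 bp, and GC content was taken over the same windows as motifs. Python 3.11.15, NumPy 2.4.6, pandas 2.3.3, SciPy 1.17.1 and matplotlib 3.10.9 were used, and the code was tested on simulated data with planted motifs and intervals. The genes, gene lists and motifs were chosen with earlier results of these data known. Named were the 9 genes, their peaks, their 3 strongest candidates each and the 5 strongest genes of each list (kis and ph-d were added after their values were seen), plus candidates with a global IDR of at most 0.05, added after their values were seen. One listed symbol, calypso, matched no gene. Of the regions this rule names, 1 is not reported here.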

Additional observations from a re-analysis of the deposited data

How the results depend on the processing

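Alternatives covered 7 results in 57 further values, of which 52 did not move and 5 moved. All 7 results were taken from the single Antp peak and most were 0, so the count of unmoved values does not measure robustness. Without replicate 1, that is with the list of replicate 2 alone, the number of Hox genes with a peak and the number of Hox peaks were both 1, as in the set from both replicates. Without replicate 2 both were 0, so each ranged from 0 to 1 when a replicate was left out. The Antp region missed the threshold of replicate 1's own list, where it was still the strongest Antp candidate. With candidates at a global IDR of at most 0.05, an alternative added after seeing the data, the counts were 5 genes and 8 regions, and 4 regions held GAGAG in place of 0. The Antp peak remained with the conservative set, with the stronger part of the thresholded set by signal, and with assignment by gene body or by nearest TSS alone. The signal and assignment settings could not have removed it. Its signal is above the median of the set, and its summit lies in the Antp body nearest an Antp TSS. The number of TSS-proximal peaks, of peaks in both replicates' own lists, and of peaks with an ETS or an Exd-Hox site was 0 in each setting that left a peak. Without replicate 2 no peak was left, so no TSS-proximal share could be given. No paired analysis was possible because the replicates form 1 group. Unknown depth limits what the absence of a peak at the other Hox genes can show.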
